A study of Mus musculus with 1627 samples.

Results

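The effector and tissue Treg transcription factors described here are 10 genes of the 23725 in the count table, namely Batf, Irf4, Prdm1, Maf, Rora, Nfil3, Gata3, Tbx21, Id2 and Bhlhe40, taken by name. They belong to the set that directs effector and tissue-resident regulatory T cells (Tregs), the Foxp3-expressing CD4+ T cells that restrain immune responses. All cells came from male B6 Foxp3-Ires-Gfp mice, a line that carries a green fluorescent reporter driven by Foxp3. They were aged 8 months and had been injured in muscle 4 days earlier with cardiotoxin, which comes from snake venom and kills muscle fibres. Live TCRb+ CD4+ GFP+ cells were sorted from the spleen, dissociated mechanically, and from the injured muscle, digested with collagenase and dispase. Tissue and dissociation therefore cannot be told apart. Single cells were captured in droplets by inDrops, which marks every copied transcript with its own molecular identifier (UMI), so that repeat reads of one molecule count once. Of the 1627 cells, 15.9% formed the only spleen library, and 41.4% and 42.7% formed 2 muscle libraries, named muscle library 1 and muscle library 2. The spleen cells came from injured animals too, and no uninjured group was analysed here. Because animals are not identified in the labels, a tissue is 1 sample here, and the tissues are compared by size and interval without p-values. The 95% intervals are exact and cover counting error only, and UMIs cluster within cells, which the intervals leave out.

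A T cell that leaves the resting state replaces a set of transcription factors. IRF4 and BATF bind composite DNA sites together and act early, downstream of the T cell receptor. BLIMP-1, the product of Prdm1, is a repressor found in effector Tregs, and c-MAF, the product of Maf, drives IL-10 and other effector genes. GATA3 and T-bet, the product of Tbx21, are the master factors of type 2 and type 1 helper cells and are also used by Tregs in tissues. RORα, NFIL3 and BHLHE40 are a nuclear receptor, a basic leucine zipper repressor and a basic helix-loop-helix repressor that also act in the circadian clock. ID2 has no DNA-binding domain and sequesters E proteins, the factors that hold lymphocytes in earlier states.

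Counts summed to 982570 UMIs in the spleen library, 1533277 in muscle library 1 and 1916496 in muscle library 2, so that 1 UMI was worth 1.02, 0.652 and 0.522 CPM, the count scaled to a library total of 1000000. The median cell held 3541, 1976 and 2488 UMIs. Shares of cells are therefore given after each cell was thinned at random to 1000 UMIs, which left out 0, 26 and 7 cells. Foxp3 stood at 368.4, 554.4 and 551.5 CPM and had a UMI in 22.8%, 37.7% and 36.1% of thinned cells. Of 20 marker genes of other cell types, 19 were in the table and 4 reached 50 UMIs. Their sum over all of them was 234.1, 149.4 and 192.5 CPM in spleen, muscle library 1 and muscle library 2. The most abundant were Pecam1, listed as an endothelial gene, at 116.02, 62.6 and 58.4 CPM, and Cd8b1, a gene of CD8 T cells, at 52.9, 37.8 and 65.7 CPM. Cdh5, the other endothelial gene of the list, was not seen in any library, so Pecam1 alone does not establish endothelial RNA here. Cd8b1 had a UMI in 5.02%, 3.55% and 6.26% of thinned cells, while Cd8a, also of CD8 T cells, had only 4, 2 and 1 UMIs. Ncr1, a gene of NK cells, had 1, 0 and 0 UMIs. The macrophage gene Cd68 had 15 UMIs in spleen and 0 in muscle. Adgre1, Ms4a1, Pdgfra and Cdh5, which mark macrophages, B cells, fibroblasts and endothelium, had 0 UMIs in every library. The sort held 1 cell type, so the share that free RNA gives could not be measured for the factors themselves. The muscle fibre gene Acta1 had a UMI in 2.32%, 2.01% and 4.08% of thinned cells and the B cell gene Cd79b in 1.93%, 1.08% and 0.728%. The part of these transcripts in the results was not tested. The muscle libraries shared 11 cell barcodes with each other and muscle library 1 shared 1 with the spleen.

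A factor with 50 UMIs or more in all was called higher (or lower) in muscle where its fold over spleen was 2 or more (or its inverse) in muscle library 1 and again in muscle library 2. The rule sets a size and tests nothing. Of the 10 factors, 9 reached the minimum. Id2, Prdm1 and Tbx21 were called higher, 3 of 9, where the rule called 7.47% of all 7617 genes higher. None was called lower (0 of 9), where 3.45% of all genes were. The other 6 measured factors stood above spleen in both muscle libraries by less than the rule asks, except that Maf and Gata3 passed 2-fold in muscle library 1 alone. The median of the mean log2 fold over spleen was 0.80 for the 9 factors and 0.05 for all genes at the minimum. All 9 had a fold above 1 in both muscle libraries, as 43.3% of all genes did, but with ribosomal protein genes left out of the totals Nfil3 fell below 1 in muscle library 2, at 0.962.

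**Figure D1:**
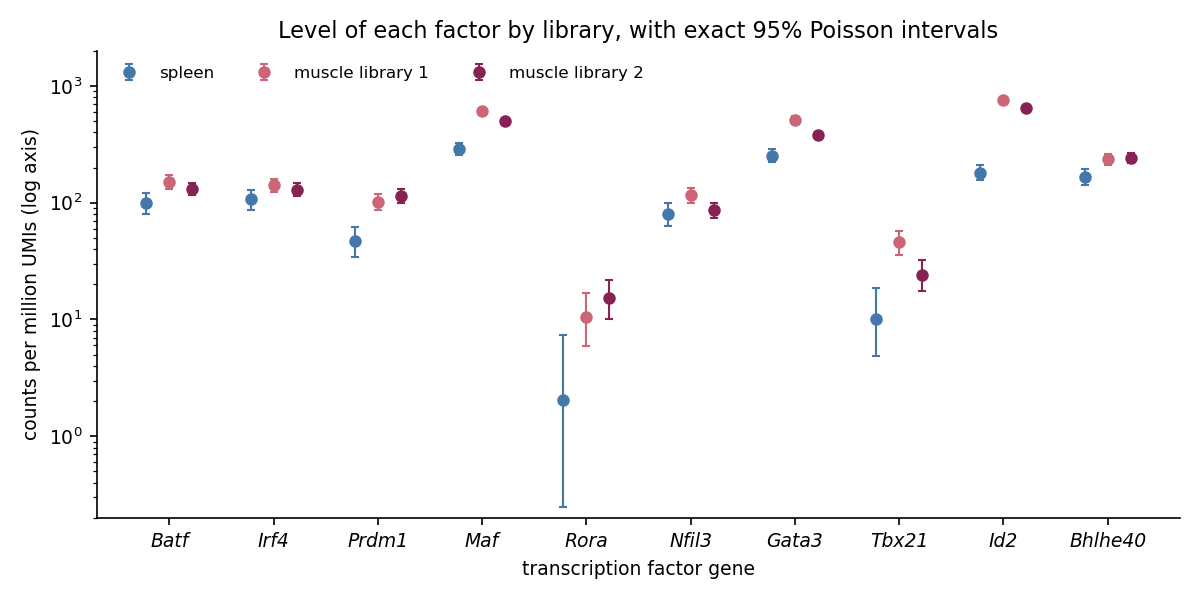
Level of each factor in each library, in CPM on a log axis, with exact 95% Poisson intervals. Each gene is to be read across libraries only; Id2 stood at 181.2 CPM in spleen and at 751 and 650.7 in the muscle libraries, while Irf4 stood at 106.9, 140.9 and 128.9.

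The stretches of 250 bases before the transcription start of Prdm1 and Tbx21 are shown because both genes were called higher, and because the sites that BATF and T-bet bind can be looked for in them. The sequences are RefSeq's on GRCm38.p6, on the minus strand and 5′ to 3′. The windows are chr10:44458749-44458998 for Prdm1 and chr11:97115332-97115581 for Tbx21, and neither overlaps an exon of GENCODE M21, although the Prdm1 window lies within the span of that gene there. Capitals mark a match to TGANTCA, the AP-1 site that BATF binds with JUN proteins.
Prdm1: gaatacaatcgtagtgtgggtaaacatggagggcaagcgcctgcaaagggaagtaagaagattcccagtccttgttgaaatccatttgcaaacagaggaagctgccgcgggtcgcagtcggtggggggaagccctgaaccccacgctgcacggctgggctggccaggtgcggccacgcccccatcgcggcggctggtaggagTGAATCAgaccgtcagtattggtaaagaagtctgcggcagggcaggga
Tbx21: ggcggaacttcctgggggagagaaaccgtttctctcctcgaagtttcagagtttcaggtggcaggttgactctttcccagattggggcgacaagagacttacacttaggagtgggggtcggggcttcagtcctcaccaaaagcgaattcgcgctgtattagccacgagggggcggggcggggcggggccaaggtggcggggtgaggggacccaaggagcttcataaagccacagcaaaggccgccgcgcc
The Prdm1 match lies 48 to 42 bases before the start. TGANTCA occurred in 6.75% of the 32851 RefSeq promoter windows of this length, and Prdm1 was the only holder among the 8 factors whose promoters were at hand (1 of 8). The table held no entry for Maf and Bhlhe40. The E-box CACGTG that BHLHE40 binds was in 0 of the 8 windows and in 6.02% of all, and the T-box core AGGTGT in 0 of 8 and in 11.8% of all. Nfil3 held the ROR core site AGGTCA, found in 14.02% of all windows, and Batf the GATA site AGATAA, found in 9.99%. Each motif was searched on both strands. These matches are letters in a window and say nothing about binding.

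Id2, the inhibitor of E proteins (chromosome 12, 25093799 to 25097140, minus strand, GRCm38), had the highest mean log2 fold of the called factors, 1.95. Its level was 181.2 CPM in spleen (interval 155.5 to 209.8), 751 in muscle library 1 (708 to 795) and 650.7 in muscle library 2 (615.05 to 687.8). Both muscle libraries lay far above spleen, and their intervals did not overlap with it. The fold was 4.14 (3.54 to 4.88) in muscle library 1 and 3.59 (3.07 to 4.23) in muscle library 2. Id2 was the only measured factor that also met a 3-fold rule. In cells thinned to 1000 UMIs its folds were 3.39 and 2.82, so there it did not reach 3-fold in muscle library 2. Id2 had a UMI in 10.04% of thinned spleen cells (6.66 to 14.4), 34.3% in muscle library 1 (30.6 to 38.1) and 27.1% in muscle library 2 (23.8 to 30.6). Before thinning the shares were 17.4%, 45.3% and 42.5%. A thinned cell that held Id2 carried 1.96 of its UMIs on average in spleen, and 1.95 and 2.05 in the muscle libraries. The libraries thus stood apart in the share of cells with Id2 and hardly in the count per holding cell. In the spleen the 10 cells richest in Id2 carried 52.2% of its UMIs, against 13.6% and 14.996% in muscle. Far fewer spleen cells held Id2, so 10 cells were a larger part of the holders there. These shares therefore do not compare how concentrated Id2 was between the libraries.

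The family of Id2 did not share its pattern. Id3, the other E protein inhibitor of T cells, stood at 84.5 CPM in spleen against 7.17 and 14.6 in muscle libraries 1 and 2 and was called lower, with folds of 0.0849 and 0.173. Id3 thus pointed the opposite way to Id2 in both muscle libraries. Id1 had 3, 5 and 9 UMIs, under the minimum. Of the E proteins, Tcf3, which encodes E2A, stood at 55.98, 54.8 and 57.9 CPM, and Tcf12, which encodes HEB, at 83.5, 55.4 and 38.6 CPM. Neither met the rule, and Tcf4 had 17, 16 and 9 UMIs.

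Prdm1, which encodes the repressor BLIMP-1 (chromosome 10, 44437177 to 44528501, minus strand), was called higher at a lower count. It stood at 46.8 CPM in spleen (34.3 to 62.4), 101.7 in muscle library 1 (86.4 to 119.02) and 114.8 in muscle library 2 (100.1 to 131.01). The muscle intervals overlapped each other and not that of spleen. The folds were 2.17 (1.56 to 3.09) and 2.45 (1.78 to 3.45), and leaving ribosomal protein genes out of the totals ended the call, with 1.94 in muscle library 1. That scaling moved the median log2 fold of all genes from 0.05 to -0.11. With cells thinned to 1000 UMIs, which left 10, 68 and 81 Prdm1 UMIs, the folds were 2.72 and 3.05. Prdm1 had a UMI in 3.47% (1.60 to 6.49), 7.25% (5.38 to 9.53) and 7.13% (5.32 to 9.32) of thinned cells, and the spleen interval overlapped both others. Its 46 spleen UMIs lay in 13 cells, and 10 of them carried 91.3%.

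BLIMP-1 and BCL6 repress each other's genes, and BACH2 represses Prdm1. Bcl6 stood at 28.5 CPM in spleen against 11.1 and 11.5 in muscle libraries 1 and 2. Bach2 stood at 74.3, 7.83 and 8.35 CPM. Both were called lower in muscle, Bach2 with folds of 0.105 and 0.112 and Bcl6 with 0.389 and 0.403, where Bcl6 no longer met the rule once cells were thinned. Of the relatives of Prdm1, Prdm2 stood at 45.8, 38.5 and 40.7 CPM and Prdm4 at 11.2, 15 and 25.6 CPM, and neither met the rule.

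Tbx21, which encodes T-bet (chromosome 11, 97098071 to 97115331, minus strand), rested on few molecules. Spleen had 10 UMIs and the muscle libraries had 70 and 46, which gave 10.2 CPM (4.88 to 18.7), 45.7 (35.6 to 57.7) and 24.002 (17.6 to 32.02). Spleen was the lowest and muscle library 1 the highest, and the intervals of spleen and muscle library 2 overlapped. The folds over spleen were 4.49 (2.30 to 9.76) and 2.36 (1.17 to 5.24). With cells thinned to 1000 UMIs, which left 4, 29 and 14 UMIs, the fold in muscle library 2 was 1.32 and Tbx21 was no longer called. It had a UMI in 1.16% (0.240 to 3.35), 3.55% (2.26 to 5.28) and 1.75% (0.906 to 3.03) of thinned cells, with overlapping intervals. These shares were no higher than those of Cd8b1 above. Between the muscle libraries Tbx21 differed by 1.90-fold (1.29 to 2.82), higher in muscle library 1. That was the widest gap among the 9 measured factors, of which 0 reached 2-fold between the muscle libraries, where 3.92% of all genes did.

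RUNX3 works with T-bet on type 1 genes. Runx3 stood at 50.9 CPM in spleen against 116.1 and 132.01 in muscle libraries 1 and 2, was called higher with folds of 2.28 and 2.59, and thus showed the same order as Prdm1. Runx1 stood at 96.7, 83.5 and 81.9 CPM and did not meet the rule. Eomes, the other T-box factor of lymphocytes, had 6, 3 and 0 UMIs.

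Maf and Gata3 had intermediate folds. Maf (chromosome 8, 115682942 to 115707794, minus strand) stood at 287.002 CPM in spleen (254.5 to 322.5), 612.4 in muscle library 1 (573.9 to 652.9) and 498.8 in muscle library 2 (467.7 to 531.5). The 3 intervals did not overlap, and muscle library 1 was the highest. The folds were 2.13 (1.87 to 2.45) and 1.74 (1.52 to 1.99). Maf had a UMI in 15.4%, 36.3% and 26.9% of thinned cells, and the share in spleen lay below both muscle shares beyond the intervals. In the spleen 1 cell alone held 33 Maf UMIs. The small Maf proteins lack an activation domain and pair with other leucine zipper factors. Among them Mafg was called higher, at 10.2, 29.3 and 36.5 CPM, while Maff stood at 55.98, 22.8 and 34.4 and Mafk at 15.3, 18.3 and 10.4 without meeting the rule.

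Gata3 (chromosome 2, 9857078 to 9890034, minus strand) stood at 252.4 CPM in spleen (221.96 to 285.8), 513.9 in muscle library 1 (478.7 to 551.1) and 376.7 in muscle library 2 (349.7 to 405.2). The order was that of Maf, with no overlap between the 3 intervals. Its folds were 2.04 (1.76 to 2.36) and 1.49 (1.29 to 1.73), and Gata3 met the rule with cells thinned, at 2.69 and 2.07. It had a UMI in 12.4%, 26.7% and 22.3% of thinned cells. Zfpm1, the GATA cofactor FOG-1, stood at 30.5, 16.96 and 14.6 CPM and did not meet the rule. Maf overlaps Gm15655, and Gata3 overlaps 9230102O04Rik, 4930412O13Rik and Gm13256 in the annotation, and the strand setting of the counts is not given in the sources used here. Reads from these genes cannot be told apart with certainty.

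Batf and Irf4, the pair that binds DNA together, differed less between the tissues. Batf (chromosome 12, 85686669 to 85709087, plus strand) stood at 98.7 CPM in spleen (80.1 to 120.4), 150.7 in muscle library 1 (131.9 to 171.4) and 130.97 in muscle library 2 (115.3 to 148.2), with folds of 1.53 (1.2 to 1.96) and 1.33 (1.05 to 1.69). Irf4 (chromosome 13, 30749226 to 30766976, plus strand) stood at 106.9 CPM (87.4 to 129.4), 140.9 (122.7 to 160.97) and 128.9 (113.3 to 145.996), with folds of 1.32 (1.04 to 1.68) and 1.21 (0.956 to 1.53). For Irf4 the intervals of spleen and both muscle libraries overlapped. The shares of thinned cells were 7.34%, 10.03% and 10.6% for Batf and 6.56%, 10.3% and 9.90% for Irf4, with overlapping intervals for both genes. The interferon-linked relatives of Irf4 stood further apart: Irf7 was called higher at 23.4, 101.7 and 110.6 CPM, Irf8 at 16.3, 67.2 and 52.2 and Irf5 at 8.14, 33.9 and 24.002. Irf1 stood at 264.6, 168.3 and 145.1 CPM, below spleen by less than 2-fold.

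BATF binds with JUN proteins and not with itself. Jund was called higher, at 534.3, 1739 and 1585 CPM with folds of 3.25 and 2.97. Junb stood at 2125, 3119 and 3277 CPM and Jun at 111.95, 121.96 and 148.2, and neither met the rule. Batf2 and Batf3 had 0 UMIs in every library. The ETS partners of IRF4 were nearly undetected, with 0, 1 and 2 UMIs of Spi1 and 4, 0 and 6 of Spib.

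Bhlhe40, Nfil3 and Rora are the members with links to the clock. Bhlhe40 (chromosome 6, 108660629 to 108666925, plus strand) stood at 165.9 CPM in spleen (141.4 to 193.4), 235.4 in muscle library 1 (211.8 to 261.03) and 241.1 in muscle library 2 (219.6 to 264.1). The muscle libraries were within counting error of each other and above spleen, by 1.42 (1.18 to 1.72) and 1.45 (1.21 to 1.75), below the rule. In cells thinned to 1000 UMIs the folds were 1.15 and 1.11. Bhlhe40 overlaps 0610040F04Rik on the opposite strand, and its close relative Bhlhe41 had 0 UMIs. Nfil3 (chromosome 13, 52967209 to 52981073, minus strand) stood at 80.4 CPM (63.7 to 100.2), 116.1 (99.7 to 134.5) and 86.1 (73.5 to 100.3), with folds of 1.44 (1.1 to 1.91) and 1.07 (0.814 to 1.42). Muscle library 2 lay nearer to spleen than to muscle library 1. The relatives of Nfil3 that compete for its sites, Dbp and Hlf, stood at 15.3, 10.4 and 17.2 CPM and at 10.2, 18.3 and 15.1 CPM without meeting the rule.

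Rora (chromosome 9, 68653786 to 69388246, plus strand) had 2 spleen UMIs and 16 and 29 muscle UMIs, 47 in all and thus under the minimum. The ratios over spleen were 5.13 (1.21 to 45.96) and 7.43 (1.88 to 64.3), each resting on the 2 spleen UMIs. In thinned cells Rora was seen in 0 spleen cells, with an exact interval up to 1.41% (3 counts would be 1.16%), and in 0.772% (0.251 to 1.79) and 1.46% (0.7 to 2.66) of muscle cells. These intervals overlapped, so a difference in the share of cells was not detectable at that depth. Rora overlaps Gm15511 on the opposite strand. REV-ERB proteins compete with RORα for its sites. Nr1d1, which encodes REV-ERBα, had 1, 20 and 24 UMIs, also under the minimum. Nr1d2 stood at 35.6, 63.3 and 49.6 CPM and did not meet the rule.

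**Figure D2:**
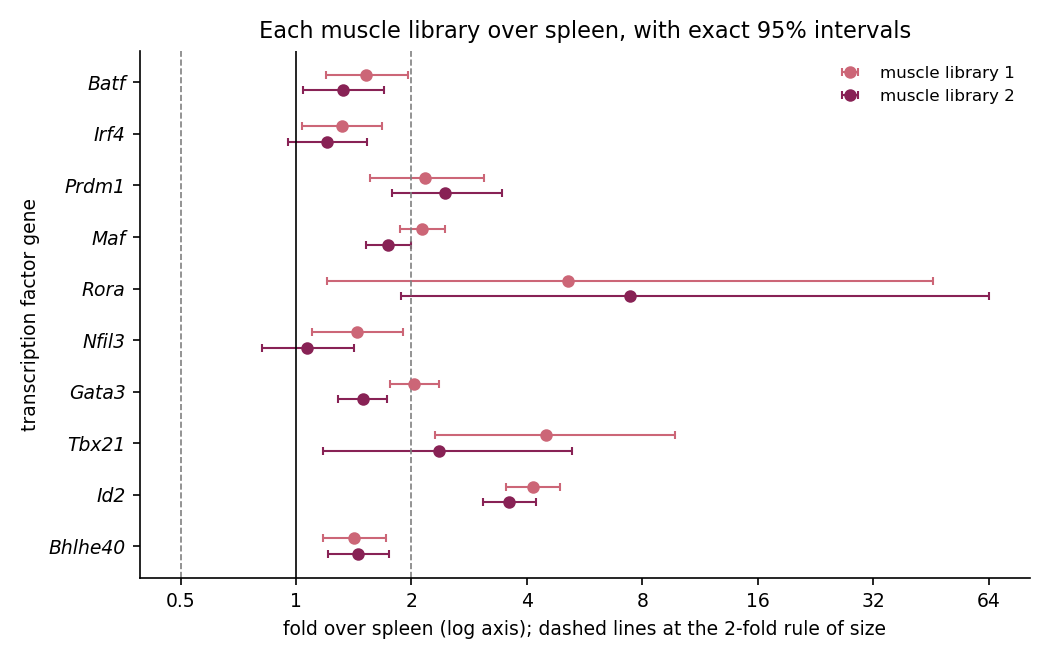
Fold of each muscle library over spleen on a log axis, with exact 95% intervals and the 2-fold rule of size as dashed lines. Id2, Prdm1 and Tbx21 lie at or beyond 2-fold in both muscle libraries; the wide intervals of Rora rest on 2 UMIs in spleen.

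Among the wider families, 16 of 30 relatives reached the minimum, of which 4 were called higher (Irf5, Irf7, Irf8 and Mafg), 1 lower (Id3) and 11 neither, with a median log2 fold of 0.18. Of the most abundant uncalled relatives, Irf9 stood at 137.4, 155.9 and 218.1 CPM, Irf2 at 89.6, 110.9 and 96.5 and Irf3 at 62.1, 61.96 and 77.2. Of 15 partners and antagonists, 11 reached the minimum, with 2 called higher (Jund and Runx3), 2 lower (Bcl6 and Bach2) and 7 neither, and a median of 0.01. A list of 12 immediate early genes, which respond to stimulation and to tissue digestion, summed to 3745, 5855 and 5601 CPM in spleen, muscle library 1 and muscle library 2. Of its 11 measured genes, 3 were called higher (Fosb, Zfp36 and Nr4a1) and 1 lower (Egr2). Thinned cells with and without Id2 held a median of 4 and 5 UMIs of this list in each muscle library and 4.5 and 3 in spleen. For Prdm1 the medians were 6 with and 4 without in muscle library 1, and 4 and 4 in muscle library 2. Their part in the tissue differences was not tested.

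**Figure D3:**
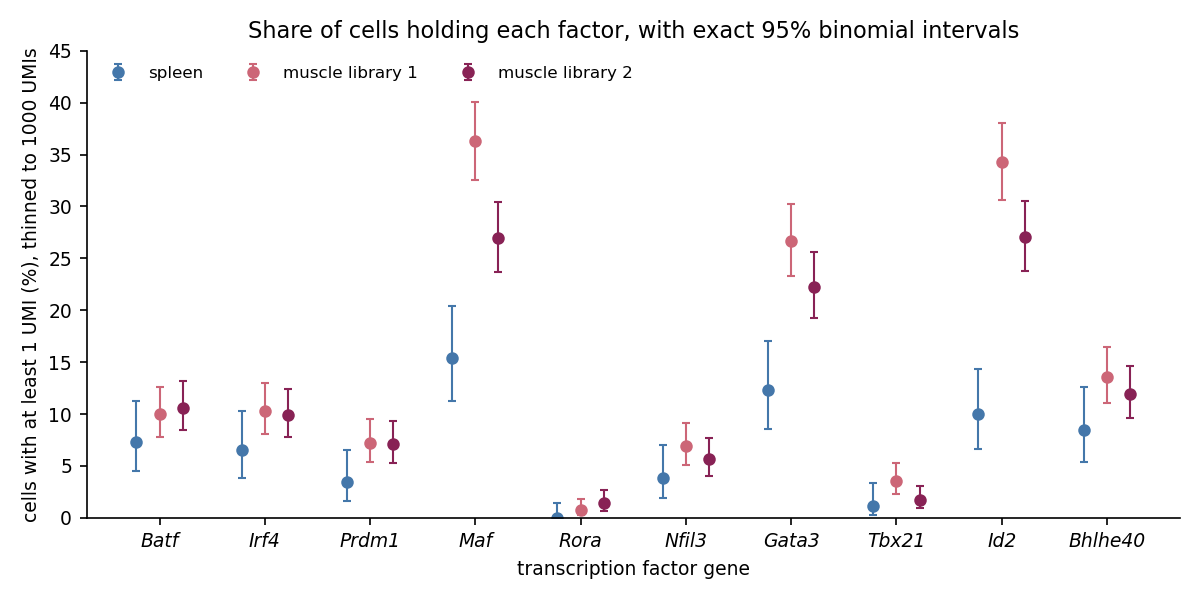
Share of cells with at least 1 UMI of each factor after every cell was thinned to 1000 UMIs, in percent, with exact 95% binomial intervals. Maf, Gata3 and Id2 have spleen intervals below those of both muscle libraries; for Batf, Irf4, Prdm1, Nfil3, Tbx21, Bhlhe40 and Rora the spleen interval overlaps them.

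Muscle cells held more of the factors at once. The mean number of the 10 factors with a UMI in a thinned cell was 0.69 in spleen, and 1.5 and 1.25 in muscle libraries 1 and 2. In spleen 53.3% of cells showed none of them (47.005 to 59.5), against 19.1% (16.2 to 22.4) and 26.9% (23.6 to 30.4) in muscle. Multiplying the single shares of the factors would put 48.4%, 17.7% and 24.9% of cells there. The variance of the number per cell was 1.26, 1.1 and 1.05 times that from the product. In the muscle libraries the number per cell thus spread nearly as the product gives. Cells with 4 or more factors numbered 34 in muscle library 1, where the product gave 24.6, and 10 in muscle library 2, where it gave 14.7. Sparse detection at this depth draws the variance ratio towards 1, so it cannot show whether the factors are independent.

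**Figure D4:**
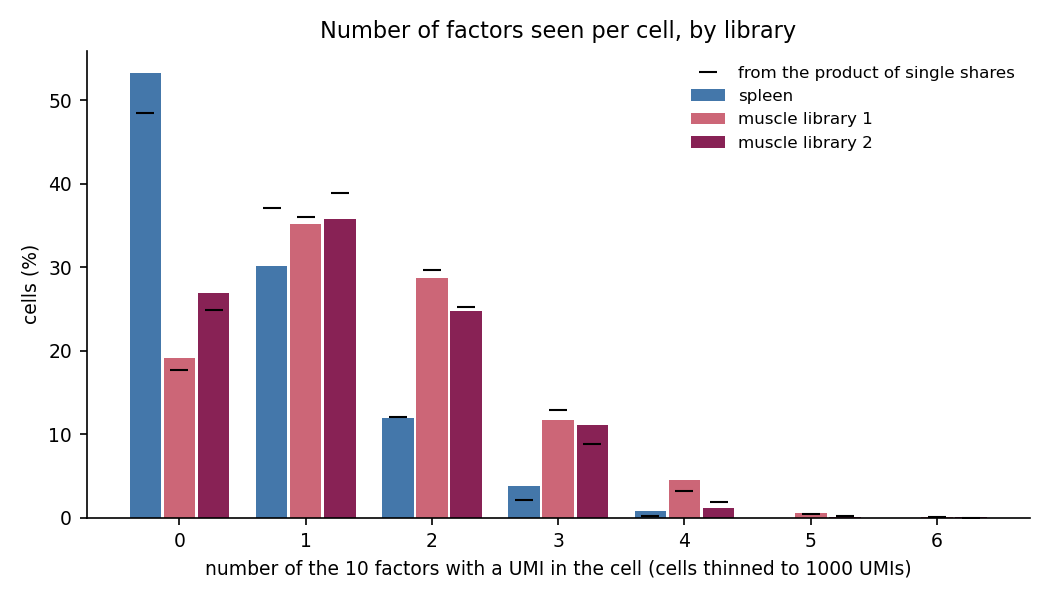
Percentage of cells (bars) by the number of the 10 factors with a UMI, in cells thinned to 1000 UMIs; black marks give the percentage from the product of the single shares. Cells with none make up 53.3% in spleen and 19.1% and 26.9% in the muscle libraries. In spleen the bar for 1 factor, 30.1%, lies below its mark at 37.1%.

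Which factors were seen together in single muscle cells was described by the co-detection ratio, the number of thinned cells holding both genes over the number that the product of the 2 shares gives. A pair was called together at a ratio of at least 1.2, and apart at 0.833 or less, in both muscle libraries, provided that the product gave at least 5 cells in each. Of the 45 pairs of factors, 22 could be measured, and the median ratio was 1.04 in each muscle library. Of these, 1 pair was called together and 0 apart, where 3.74% and 5.23% of all 3555810 measurable pairs of genes were. These shares do not set the factors apart from other genes. Over the 22 pairs 8 ratios were above 1 in both muscle libraries, 5 below 1 in both and 9 mixed.

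The pair called together was Id2 with Bhlhe40. In muscle library 1, 38 cells held both, where the product gave 30.1 (ratio 1.26), and in muscle library 2, 32 held both where it gave 22.2 (ratio 1.44). Of the cells with Bhlhe40, 43.2% (32.7 to 54.2) and 39.02% (28.4 to 50.4) also held Id2, against 32.9% (28.98 to 36.9) and 25.5% (22.03 to 29.1) of those without. The intervals overlapped in muscle library 1, and just so in muscle library 2. The average over all possible thinnings, computed after the data had been seen, gave 1.32 and 1.43. With all UMIs kept and cells compared within 10 strata of depth the ratios were 1.19 and 1.28, under the threshold in muscle library 1. In spleen 2 cells held both where the product gave 2.21.

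Batf and Irf4, whose proteins bind DNA together, showed no such pattern: 6 cells held both in muscle library 1 where the product gave 6.72, and 10 in muscle library 2 where it gave 7.23. Several ratios differed between the muscle libraries. Batf with Gata3 had 1.67 and 0.861, Maf with Bhlhe40 0.595 and 0.996, Maf with Gata3 1.02 and 0.655, and Nfil3 with Id2 1.56 and 1.04. None of these met the rule in both libraries. Gata3 with Tbx21, the type 2 and type 1 factors, could not be measured in thinned cells, where 8 cells held both in muscle library 1 and 2 in muscle library 2, against 6.14 and 2.67 from the product. With all UMIs, 20 and 15 cells held both where the strata of depth gave 17.8 and 13.6, so the cells that held both were not fewer than the product.

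Each factor was also set against 18 marker genes of Treg programs. Of 180 pairs, 91 could be measured. Of these, 13 were called together and 1 apart, where the same rule called 5.20% and 6.09% of 19727 pairs of a factor with any gene. The median ratio was 1.06 and 1.095. The markers were chosen with earlier results of these data known, so their count is a description.

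Penk, which encodes the opioid precursor proenkephalin, was called together with Id2 and with Gata3. For Id2, 19 and 16 cells held both where the product gave 10.3 and 10.02 (ratios 1.85 and 1.60). Of the cells with Penk, 63.3% (43.9 to 80.1) held Id2 in muscle library 1 and 43.2% (27.1 to 60.5) in muscle library 2, against 32.8% (29.2 to 36.7) and 26.2% (22.8 to 29.7) of those without. For Gata3, 15 and 14 cells held both where the product gave 8.01 and 8.24 (ratios 1.87 and 1.70). Of the cells with Penk, 50% (31.3 to 68.7) and 37.8% (22.5 to 55.2) held Gata3, against 25.6% (22.2 to 29.2) and 21.4% (18.3 to 24.7) of the others. These intervals did not overlap in muscle library 1 and did in muscle library 2, for both factors. Id2 with Penk met the rule under all 14 alternative settings tried, and Gata3 with Penk under 13 of the 14. These settings included a looser ratio and each muscle library taken alone, which could not end a call. Others only left out some cells from the same thinning. The same limit applies to every count of the 14 given below.

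Il1rl1, which encodes ST2, the IL-33 receptor of tissue Tregs, was called together with Gata3 and with Bhlhe40. With Gata3, 30 and 25 cells held both where the product gave 22.96 and 18.3 (ratios 1.31 and 1.37). The shares of cells with Gata3, among cells with and without Il1rl1, had overlapping intervals in both muscle libraries. With Bhlhe40, 21 and 14 cells held both where it gave 11.7 and 9.79 (ratios 1.80 and 1.43). Of the cells with Il1rl1, 24.4% (15.8 to 34.9) held Bhlhe40 in muscle library 1, against 11.9% (9.36 to 14.9) of those without. In muscle library 2 the figures were 17.1% (9.66 to 26.98) and 11.2% (8.83 to 14.03), with overlapping intervals. The averages over all thinnings were 1.47 and 1.34 for Gata3 with Il1rl1, and 1.62 and 1.5 for Bhlhe40 with Il1rl1.

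Bhlhe40 and Gzmb, the gene of the cytotoxic protease granzyme B, formed the pair called apart. In muscle library 1, 30 cells held both where the product gave 42.5 (ratio 0.706), and in muscle library 2, 20 where it gave 34.9 (ratio 0.574). Of the cells with Bhlhe40, 34.1% (24.3 to 44.97) and 24.4% (15.6 to 35.1) held Gzmb, against 50.5% (46.3 to 54.8) and 44.96% (40.9 to 49.02) of the cells without. These intervals did not overlap in either muscle library. The average over all thinnings gave 0.740 and 0.540. The pair met the rule under 12 of the 14 alternatives, and missed it with a second random thinning and at a ratio of 1.5. Cells with a UMI of both were still present, 20 to 30 in each library, so detection of the genes was not exclusive. The part of free RNA and of doublets in these cells was not tested.

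Tbx21 with Gzmb stood on the other side, at 1.44 and 1.37. Of the Tbx21 cells, 16 of 23 in muscle library 1 and 7 of 12 in muscle library 2 held Gzmb, or 69.6% (47.1 to 86.8) and 58.3% (27.7 to 84.8), against 47.5% (43.5 to 51.5) and 42.2% (38.5 to 46.05) of the others. The second random thinning ended the call. Id2 with Havcr2, which encodes the inhibitory receptor TIM-3, had the highest ratio in a single library, 2.26 in muscle library 1, and 1.61 in muscle library 2. There, 17 and 10 cells held both. Prdm1 with Itgae, the CD103 integrin chain that binds E-cadherin, had 1.26 and 1.23, and kept its call under 11 of the 14 alternatives. The call was lost with thinning to 750 UMIs, at a ratio of 1.5 and without cells holding a Mki67 UMI.

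Other pairs called together were less stable. Nfil3 with Itgae had ratios of 1.42 and 1.65 but 1.11 and 1.41 in the average over all thinnings. Batf with Foxp3 had 1.23 and 1.21 but 1.06 and 1.18. Gata3 with Tnfrsf25, which encodes the receptor DR3, averaged 1.31 and 1.04, and Id2 with Tnfrsf25 averaged 1.21 and 1.05. Each of these 4 missed the rule in that average. Id2 with Klrg1, an inhibitory receptor of differentiated T cells, had 1.2 and 1.34, averaged 1.32 and 1.29, and kept its call under 8 of the 14 alternatives.

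Maf had no marker pair that met the rule among 15 measured. Its highest was Tnfrsf25, at 1.22 and 1.15, and its lowest Ccr7, the lymph node homing receptor, at 0.772 and 0.844. Cxcr3, a chemokine receptor that T-bet controls in T helper cells, was the lowest marker for Id2, at 0.906 and 0.693, and for Irf4, at 0.667 and 0.947. Irf4 with Cxcr3 was not stable. It was called together with thinning to 1500 UMIs, without thinning and within strata of depth, and apart in muscle library 1 alone. Tbx21 with Cxcr3 could not be measured at the main depth, and was called together without thinning and within the strata. Icos, a costimulatory receptor, was the lowest for Nfil3, at 1.01 and 0.903, and for Tbx21, at 1.05 and 1.02. Gzmb was the lowest for Gata3, at 1.01 and 0.938. No marker pair of Rora could be measured.

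**Figure D5:**
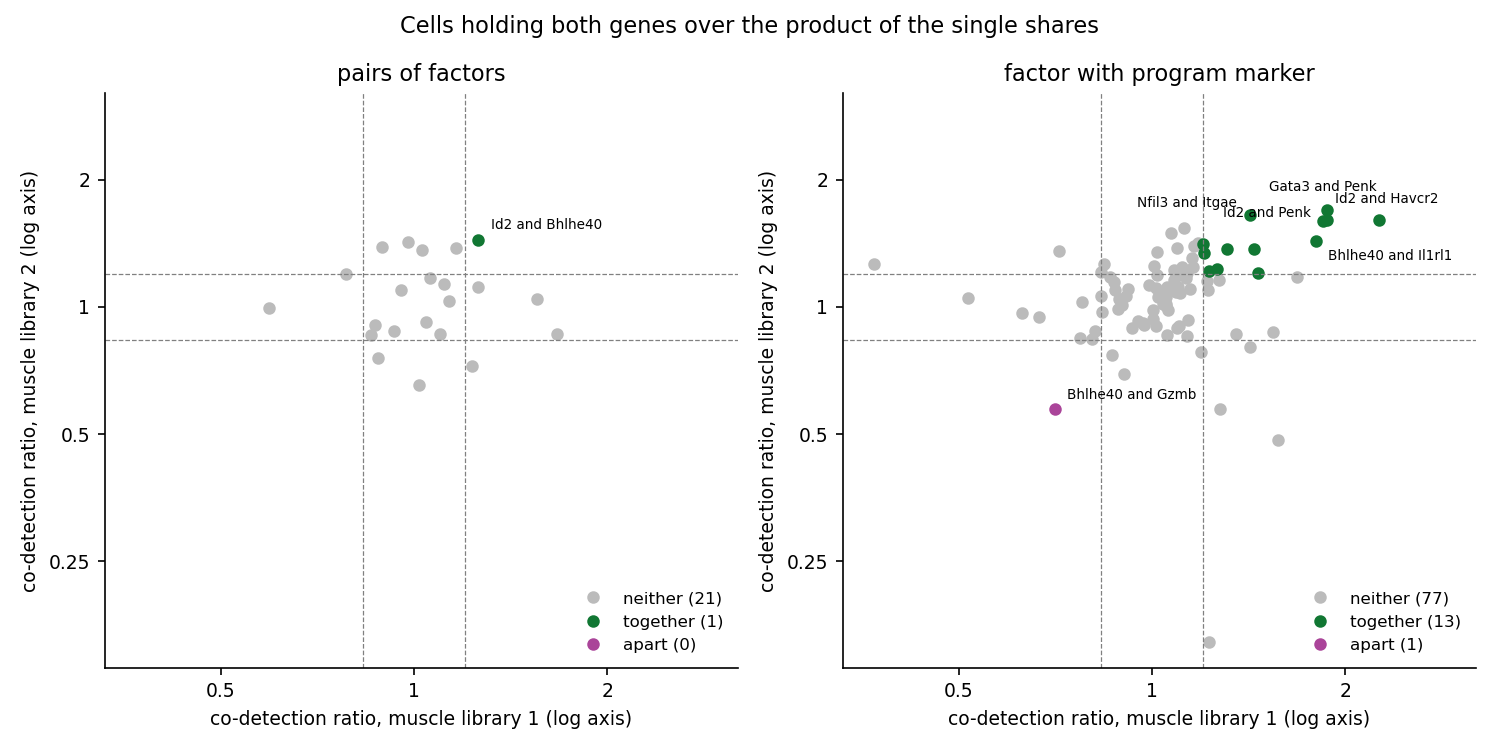
Co-detection ratio in muscle library 1 (horizontal) and muscle library 2 (vertical) on log axes, for the 22 measured pairs of factors (left) and the 91 measured pairs of a factor with a program marker (right). Dashed lines mark ratios of 0.833 and 1.2; Id2 with Bhlhe40 is alone in the upper right corner at left, and Bhlhe40 with Gzmb alone in the lower left corner at right.

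In the spleen, 12 cells held both Gata3 and Ccr7 where the product gave 7.04, while 5 and 1 muscle cells did where it gave 6.67 and 4.90. For Maf and Ccr7, 4 spleen cells held both where the product gave 8.80. The spleen counts of the 2 factors thus lay on opposite sides of the product, and the difference between them was not tested.

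Likeness between genes was measured as Pearson's r over all cells of each muscle library, on log-transformed counts per 10000, among 4082 genes seen in at least 5% of the cells of both libraries. The cells of a library share its depth and preparation, and most of these values are too weak to count as a finding. Id2 was most like Tnfrsf9, which encodes the costimulatory receptor 4-1BB, at r = 0.32 and 0.29, then Tnfrsf4, which encodes OX40, at 0.23 and 0.29, and Ddit4, a stress-induced inhibitor of mTORC1, at 0.23 and 0.22. Bhlhe40 was most like Cd83 (0.19 and 0.24), Marcksl1 (0.25 and 0.17) and Dgat2 (0.16 and 0.16), and Gata3 like Cd83 (0.18 and 0.17), Tnfrsf4 (0.13 and 0.19) and Dgat2 (0.15 and 0.13). Batf came nearest to Odc1 (0.14 and 0.14), Pa2g4 (0.14 and 0.17) and Tnfrsf4 (0.13 and 0.16). For the other 6 factors no gene had a smaller r above 0.12.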

How the data were processed

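The deposited file is 1 table of raw counts of UMIs, 23725 genes by 1627 cells. Per the submitters' processing notes, TopHat2, SAMtools and mm10 were used. How UMIs were collapsed, how cells were filtered, the annotation and the strand setting were not given in the sources used here. Cells were assigned to the 3 libraries (259 spleen cells, 674 and 694 muscle cells) by their labels, and none of the table's cell columns lacked a label (0 unused). The members, gene lists and rules were chosen with earlier results of these data known.

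Library sums of UMIs were divided by their total to give CPM, where totals ran from 982570 to 1916496. Levels carry exact Poisson, shares Clopper-Pearson and folds conditional binomial 95% intervals; a library with 0 UMIs takes a floor of 3 counts. Calls need 50 UMIs over the 3 libraries and 2-fold in both muscle libraries. For shares and pairs, 1000 UMIs were drawn from each cell without replacement (seed 1). Every cell was kept otherwise, with at least 756 UMIs, and doublets were not called; 0, 12 and 7 cells had over 3 times the median UMI count of their library. The rules were tried on simulated data with effects well above the thresholds and, for pairs, without varying depth. That trial says nothing about calls near the thresholds.

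The text names all 10 factors, every called relative or partner and the most abundant others, each factor's highest and lowest marker pair, and the genes most like a factor by the smaller Pearson r, without ribosomal protein and predicted genes. Some genes that these rules name are not reported here. Other pairs and genes were named after their values were seen. Coordinates come from GENCODE M21 on GRCm38 and promoters from RefSeq on GRCm38.p6, matched by symbol, with 8 of 10 factors found. Alternatives covered scaling, the UMI minimum, the fold, the depth and seed of thinning, the ratio and left-out cells. Scaling factors came from edgeR 4.0.16 and DESeq2 1.42.0 in R 4.3.3, and neither was used for a test. All else ran in Python 3.11.15 with scipy 1.17.1, numpy 2.4.6, pandas 2.3.3 and matplotlib 3.10.9.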

Additional observations from a re-analysis of the deposited data

How the results depend on the processing

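No paired analysis was possible because no test was made and the labels pair no libraries. The 3 other scalings, equal weight per cell, left-out deep cells and left-out cells with a barcode of both muscle libraries (22 cells, added after seeing the data) moved no count of factors called higher or lower by over 1.5 times. Of 70 refitted mean log2 folds of single factors, 70 stayed above 0 and 8 moved beyond the counting interval of the pooled muscle fold. The 70 include each muscle library alone, where every fold was above 1 already. The mean can hide a single library. With thinning Rora had a fold of 0.799 in muscle library 1, with spleen at the floor. With ribosomal protein genes left out of the totals, Nfil3 fell below 1 in muscle library 2, as given above. The 3 factors called higher became 1 with a 3-fold rule and 5 in muscle library 1 alone.

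The pair calls rest on small numbers of cells and moved more. The 1 pair of factors together became 4 with thinning to 750 UMIs or at a ratio of 1.1, 2 with seed 2 or averaged over all thinnings, 0 at a ratio of 1.5, 7 in muscle library 1 alone, 5 in muscle library 2 alone and 10 without thinning. Within 10 strata of depth the count stayed at 1, but the pair was Rora with Id2 and not Id2 with Bhlhe40. Rora with Id2 was also called together without thinning, and could not be measured at the main depth. The 0 pairs apart became 3 with thinning to 750 UMIs, 1 with 1500 UMIs, 2 within 10 strata of depth, 3 at a ratio of 1.1, 1 without cells holding a Mki67 UMI, and 3 in each muscle library alone. The 13 marker pairs together became 37 without thinning, 25 and 4 at ratios of 1.1 and 1.5, 6 with at least 10 cells from the product, and 27 and 30 in muscle libraries 1 and 2 alone. The 1 marker pair apart became 3, 4 and 2 with thinning to 750 UMIs, to 1500 UMIs and with seed 2, 2 within strata, 6 and 0 at ratios of 1.1 and 1.5, 2 without Mki67 cells, 15 and 9 in muscle libraries 1 and 2 alone and 3 averaged over all thinnings. Without thinning, deeper cells hold more of every gene. The cause of the other shifts was not tested. The summed log2 ratio of Id2 with Tnfrsf25 turned to -0.06 with thinning to 750 UMIs.

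The following list counts were recomputed with alternatives added after seeing the data. Of the family relatives, the 4 higher became 2 with at least 200 UMIs or a 3-fold rule. The 1 lower became 2 with equal weight per cell, with thinning, with at least 10 UMIs or in muscle library 1 alone, 0 with at least 200 UMIs and 4 at 1.5-fold. Of the partners and antagonists, the 2 higher became 0 at 3-fold, and the 2 lower became 1 with thinning or at 3-fold, 0 with at least 200 UMIs, and 4 at 1.5-fold or in muscle library 2 alone. Few UMIs limit Rora (47 in all, 2 in spleen) and Tbx21 (10 in spleen).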
